A study of Homo sapiens with 6 samples.

Results

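The annexins described here are 10 genes, ANXA1, ANXA2, ANXA3, ANXA4, ANXA5, ANXA6, ANXA7, ANXA9, ANXA11 and ANXA13, out of 19775 genes with a probe set of their own. They were taken with all 20 probe sets that the array annotation pairs with 1 of these genes and no other, out of 54675 probe sets. RNA came from SW480, an established human colon carcinoma line, and was hybridised to 6 one-colour Affymetrix arrays. In 3 arrays the cells carried a non-targeting control shRNA and in 3 an shRNA against gankyrin, the product of PSMD10, each for 4 days. The sample titles name no further treatment. Gankyrin helps to assemble the regulatory particle of the proteasome and also binds the retinoblastoma protein. The labels name 1 shRNA per group and do not say whether the arrays of a group came from separate cultures, so the errors given here cover array-to-array spread that may be technical. The genes share a family name, and the family was picked on results of the knockdown against control comparison in these same arrays, in which ANXA13 stood out; the changes and calls are therefore given as a description and not as a test.

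Annexins are cytosolic proteins that bind acidic phospholipids when calcium rises. Each joins a conserved core of annexin repeats, which hold the calcium sites, to a variable N-terminal tail, which binds partners such as the small calcium-binding S100 proteins. They organise membrane domains, exocytosis, endocytosis and the sealing of torn plasma membrane. In the gut epithelium ANXA2 and ANXA4 are abundant, and ANXA13, an annexin of intestinal and kidney epithelium anchored by a myristoyl group, is placed at the apical membrane and on vesicles bound for it.

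The median log2 signal of an array lay between 4.20 and 4.25. PSMD10, the targeted gene, was at 10.15 to 10.23 on the control arrays and at 6.30 to 6.58 on the knockdown arrays, a fall of 3.74 on the log2 scale. Of 9 colon epithelial markers, 8 had a mean signal over 4.48, the value that bounds 95% of 107 probe sets for olfactory receptors and serves here as a guide to the low end of the scale; CDX2 was the exception. The summed signal of these markers was 14.36 to 14.39 on control and 14.31 to 14.34 on knockdown arrays (log2). Of the 9, 3 were called, where 22.5% of all genes tested were. VIL1 (villin) rose by 0.82 ± 0.09, whereas CDH1 (E-cadherin) was at -0.64 ± 0.09 and KRT19 (keratin 19) at -0.46 ± 0.07 (SE; limma, adjusted p = 0.000233, 0.000863 and 0.00111). Among markers of other cell types, 2 of 7 for fibroblasts and 2 of 5 for endothelium exceeded 4.48. So did 4 of the 6 leukocyte markers with a probe set. Of those tested 0 were called different by limma, but some were removed by a filter on dim probe sets and could not be called. LYZ, which gut epithelium also makes, dominated the leukocyte sum of 12.34 to 12.39 on control and 12.21 to 12.39 on knockdown arrays. The fibroblast sum was 7.58 to 7.94 and 7.88 to 7.96, and the endothelial sum 6.33 to 6.41 and 6.34 to 6.52, in the same order. Control replicate 3 stood apart in RNA quality: its ACTB signal was 1.82 higher at the 3' than at the 5' control probe set (log2), against 0.43 to 0.53 on the other arrays. Control probe sets for 18S ribosomal RNA were higher on the knockdown arrays by 0.79 to 1.29. The part of these measures in the annexin results was not tested; values without control replicate 3 are given with the results.

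The annexins moved in both directions, and ANXA13 moved furthest. Each gene was read on its brightest probe set, and "rose" and "fell" mark genes past an adjusted p of 0.05 in limma, fitted and adjusted over all 14199 genes that passed a filter on dim probe sets. All 10 annexins passed that filter. By this measure 4 rose (ANXA1, ANXA4, ANXA9 and ANXA13), 3 fell (ANXA3, ANXA5 and ANXA11) and 3 were not called (ANXA2, ANXA6 and ANXA7). The groups of arrays did not overlap for 4 genes upward and 4 downward, ANXA2 being the fourth of these; over all genes 40.3% did not overlap, 15.7% upward and 24.6% downward. Over all genes tested 22.5% were called, 8.13% higher and 14.3% lower. Because this contrast bore on the choice of genes, nothing is read from the gap to that background. The median log2 fold change of the 10 annexins was 0.05 and their median absolute change 0.28, against -0.02 and 0.14 over all genes. Only ANXA13 changed at least 2-fold, as did 0.87% of all genes. Without control replicate 3, which raised the number of called genes over the whole array from 3189 to 4161, 8 annexins were called, ANXA2 being added at -0.11 (limma, adjusted p = 0.0243). Without knockdown replicate 1, 2 or 3 the array-wide number fell to 1734, 1743 and 1732, and 5, 4 and 6 annexins were called.

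**Figure D1:**
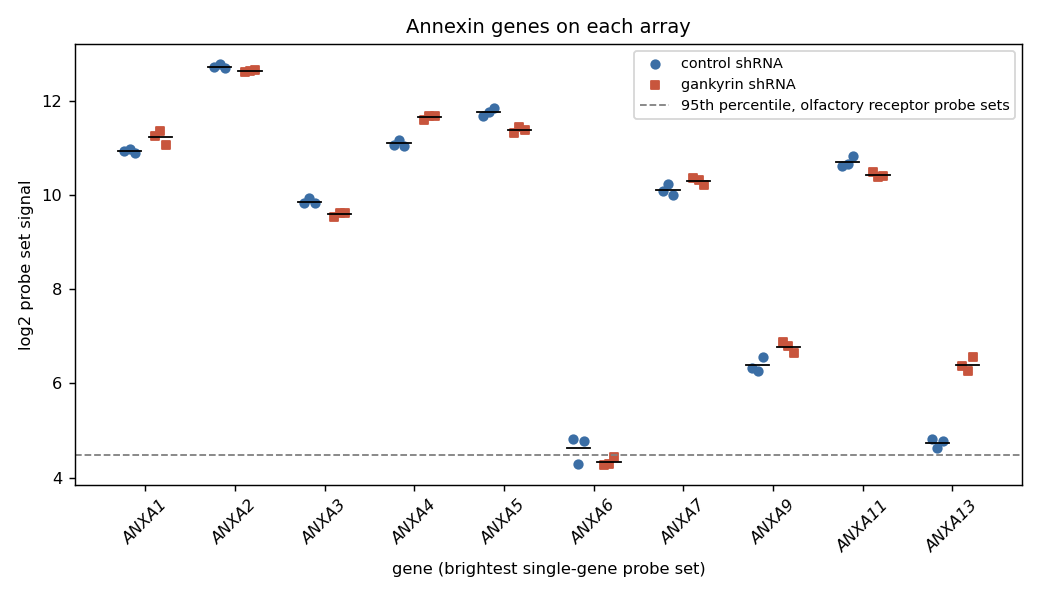
Log2 probe set signal of each annexin gene (x axis) on its brightest single-gene probe set, for 3 control shRNA arrays (circles) and 3 gankyrin shRNA arrays (squares), with group means as bars; the dashed line at 4.48 is the 95th percentile of olfactory receptor probe sets. ANXA13 stands just over the dashed line on control arrays and at 6.27 to 6.56 on knockdown arrays, while the groups of ANXA6 and ANXA7 overlap.

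ANXA13 was low in control cells and clearly above that level after knockdown. Its single probe set, 208323_s_at, read 4.82, 4.62 and 4.78 on the control arrays and 6.36, 6.27 and 6.56 on the knockdown arrays, each in the order of replicates 1 to 3, as in all values that follow. The lowest knockdown value was thus higher than every control value, and each group was tight beside the gap between them. The control mean of 4.74 ± 0.11 lay little above the low-end value of 4.48, whereas the knockdown mean was 6.40 ± 0.15 (SD, n = 3 each). The log2 fold change was 1.66 ± 0.11 (SE; 95% interval 1.42 to 1.89), a 3.15-fold rise and the rank of 4 among the rises of all 14199 genes. This ratio rests on a control signal close to the low end of the scale. In RNA from a whole culture, more cells making a transcript and more transcript per cell cannot be told apart. The rise was 1.68 without control replicate 3 and ranged from 1.57 to 1.72 over the 15 processing alternatives, of which only rescaling or leaving out an array could move it.

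ANXA4 had the next largest rise and showed it on both of its probe sets. This annexin is abundant at the apical side of secretory and absorptive epithelia and has been linked to membrane aggregation and chloride conductance. Its brighter probe set, 201301_s_at, was at 11.07, 11.16 and 11.05 in control and 11.59, 11.68 and 11.68 in knockdown cells. The other, 201302_at, was at 10.76, 10.82 and 10.75 and then at 11.35, 11.38 and 11.46. No knockdown array came near a control array on either. The log2 fold changes were 0.56 ± 0.05 and 0.62 ± 0.04 (SE), or 1.47- and 1.54-fold. A change of that size or more was seen in 5.2% of all genes.

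ANXA9 and ANXA1 also rose, by less. ANXA9 is an atypical annexin whose core has lost residues needed for calcium binding. Its brighter probe set, 211712_s_at, read 6.32, 6.26 and 6.56 in control and 6.88, 6.79 and 6.64 in knockdown cells, so that the groups were separated by a narrow margin. The second, 210085_s_at, read 6.27, 6.35 and 6.03 and then 6.78, 6.87 and 6.69, with a wider gap. The log2 fold changes were 0.39 ± 0.11 and 0.56 ± 0.11 (SE). The rise of ANXA9 on its brighter probe set missed the threshold without control replicate 1 or 2 (limma, adjusted p = 0.0637 and 0.0843) or knockdown replicate 1 or 2 (0.112 and 0.0916).

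ANXA1, a glucocorticoid-induced ligand of the formyl peptide receptor FPR2 that dampens inflammation, was at 10.94, 10.98 and 10.90 in control and 11.25, 11.35 and 11.06 in knockdown cells. Knockdown replicate 3 lay closest to the controls but still above them all. The log2 fold change was 0.28 ± 0.07 (SE; 95% interval 0.13 to 0.43). The rise missed the threshold when knockdown replicate 1 or 2 was left out (limma, adjusted p = 0.0673 and 0.0681) and with no intensity trend in the variance (0.0600). The second ANXA1 probe set, 233011_at, had a mean of 3.53, under the low-end value, and was removed by the filter.

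ANXA5, ANXA3 and ANXA11 fell. ANXA5 binds phosphatidylserine tightly and in labelled form is the usual probe for dying cells. It read 11.67, 11.77 and 11.84 in control and 11.31, 11.45 and 11.37 in knockdown cells, with no overlap. The log2 fold change was -0.38 ± 0.05 (SE; 95% interval -0.50 to -0.26), and it lay between -0.43 and -0.34 under every alternative run, always past the threshold.

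ANXA3, an annexin best known from neutrophils, was at 9.82, 9.94 and 9.82 in control and 9.53, 9.62 and 9.61 in knockdown cells. The groups did not overlap, and the log2 fold change of -0.27 ± 0.06 (SE) also passed under every alternative run, with a highest adjusted p = 0.0480 (limma). ANXA5 and ANXA3 have 1 single-gene probe set each, so no second reading on the array bears on them.

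ANXA11 binds the calcium sensor PDCD6 and tethers RNA granules to lysosomes. On its brightest probe set, 206200_s_at, it read 10.62, 10.65 and 10.82 in control and 10.48, 10.39 and 10.41 in knockdown cells. The change was -0.27 ± 0.06 (log2, SE) there, but the dimmer probe sets 214783_s_at and 228727_at were at -0.12 ± 0.11 and -0.20 ± 0.12 and were not called. On 214783_s_at the groups overlapped, and that difference was -0.01 without control replicate 3. The fall of ANXA11 also missed the threshold when knockdown replicate 2 or 3 was left out (limma, adjusted p = 0.0554 and 0.0518), with its probe sets averaged (0.0822), and when probe sets ending in _s_at or _x_at were avoided (0.251).

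The proximal promoters of members that rose and of members that fell are shown for comparison, as the 250 bases before the annotated start in RefSeq (GRCh38.p14), 5' to 3'. Of the 10 genes, 9 had an entry, with 13 windows in all; ANXA13 had none. Capitals mark matches, on either strand, to the 6 motifs searched. They were the TATA box, spelled TATAAA, and the GC box, spelled GGGCGG, whose neighbouring matches can overlap. The CCAAT box was searched by the letters in its name and the E-box as CACGTG. The AP-1 site was searched as TGANTCA and the site of NFIL3 as TTANGTAA. The first 3 sequences belong to genes that rose and the last 2 to genes that fell.
ANXA1 (chr9:73151615-73151864, plus strand): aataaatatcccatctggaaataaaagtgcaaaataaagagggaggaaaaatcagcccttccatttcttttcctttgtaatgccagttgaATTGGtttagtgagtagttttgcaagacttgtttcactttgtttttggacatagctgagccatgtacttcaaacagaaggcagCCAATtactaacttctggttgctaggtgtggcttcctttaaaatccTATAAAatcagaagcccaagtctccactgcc
ANXA4 (chr2:69643558-69643807, plus strand): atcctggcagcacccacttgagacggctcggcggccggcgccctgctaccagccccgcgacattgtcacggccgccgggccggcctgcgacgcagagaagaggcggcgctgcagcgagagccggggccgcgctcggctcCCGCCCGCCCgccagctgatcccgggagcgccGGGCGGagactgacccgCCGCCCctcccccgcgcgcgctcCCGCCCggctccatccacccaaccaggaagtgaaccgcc
ANXA9 (chr1:150982042-150982291, plus strand): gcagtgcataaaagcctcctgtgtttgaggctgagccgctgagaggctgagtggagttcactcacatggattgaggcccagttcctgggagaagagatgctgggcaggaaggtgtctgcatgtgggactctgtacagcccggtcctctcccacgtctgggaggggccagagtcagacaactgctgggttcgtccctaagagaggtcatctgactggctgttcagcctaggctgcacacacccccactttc
ANXA3 (chr4:78551520-78551769, plus strand): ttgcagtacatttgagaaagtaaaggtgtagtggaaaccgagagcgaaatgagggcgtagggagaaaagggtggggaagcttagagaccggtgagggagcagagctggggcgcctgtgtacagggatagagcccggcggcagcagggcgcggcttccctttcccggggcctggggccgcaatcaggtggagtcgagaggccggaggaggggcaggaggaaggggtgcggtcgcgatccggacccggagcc
ANXA5 (chr4:121696981-121697230, minus strand): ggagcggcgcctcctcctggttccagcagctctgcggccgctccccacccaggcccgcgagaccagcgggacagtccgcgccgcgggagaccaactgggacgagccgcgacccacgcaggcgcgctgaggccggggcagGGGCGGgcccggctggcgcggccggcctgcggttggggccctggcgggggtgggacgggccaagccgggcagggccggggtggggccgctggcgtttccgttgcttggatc

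Of the windows shown, none of the 6 motifs was found in all 3 from genes that rose or in both from genes that fell. Windows of ANXA11, which also fell, and another window of ANXA4 are not shown. Those of ANXA11 held GC boxes, a TATA box and a CCAAT box among them, and that of ANXA4 held 3 GC boxes and an E-box. The ANXA1 window had a GC content of 38.4%, a TATA box 31 to 26 bases before the start and 2 CCAAT boxes. The ANXA4 window shown had a GC content of 77.2% and 5 GC boxes, and the ANXA9 window, at 58.0%, held none of the 6 motifs. Among the genes that fell, the ANXA3 window (64.0%) held none and the ANXA5 window (78.8%) held 1 GC box. ANXA2, which was not called, had both a TATA box 31 to 26 bases before its start and 3 overlapping GC boxes. Among 34943 RefSeq windows of the same length, whose median GC content was 58.0%, 10.8% held the TATA box, 42.5% the GC box, 32.0% the CCAAT box, 6.3% the E-box, 6.6% the AP-1 site and 2.0% the NFIL3 site. Of the 13 annexin windows, an ANXA2 window held an AP-1 site, and an ANXA11 window held the NFIL3 site. These are matches of letters, not evidence of binding.

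ANXA2, ANXA7 and ANXA6 were not called. ANXA2 forms a heterotetramer with S100A10 that links membranes to actin and binds plasminogen activators at the cell surface. Its 3 bright probe sets, all ending in _x_at, had log2 fold changes of -0.09 each. On 201590_x_at it read 12.71, 12.78 and 12.69 in control and 12.62, 12.64 and 12.65 in knockdown cells, so that the groups did not overlap although the gap was small. The 95% interval was -0.17 to -0.01, or a 1.06-fold difference at the estimate. The probe set of the processed pseudogene ANXA2P2, also ending in _x_at, was at -0.13; the part of its transcripts in the ANXA2 signal was not tested. The call depended on the setting, being passed with quantile normalization (limma, adjusted p = 0.0466) and without control replicate 3.

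ANXA7 (synexin), a membrane-fusion annexin that binds sorcin, read 10.09, 10.24 and 9.99 in control and 10.35, 10.32 and 10.21 in knockdown cells on 209860_s_at. The groups overlapped there and on 201366_at, and the changes were 0.19 ± 0.07 and 0.07 ± 0.06 (log2, SE). Without control replicate 2 the brighter probe set passed at 0.25 (limma, adjusted p = 0.0314), and with the replicate number as a block it passed at 0.19 (0.0452). ANXA6, whose core is duplicated, had a mean of 4.48, no higher than the low-end value. It read 4.81, 4.28 and 4.77 in control and 4.27, 4.29 and 4.44 in knockdown cells, a change of -0.29 ± 0.14 (SE; 95% interval -0.61 to 0.03). Without control replicate 2, the lowest of its group, the change was -0.46 and passed (limma, adjusted p = 0.0256).

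Probe sets of 1 annexin mostly pointed the same way. Of the 20 probe sets, 17 passed the filter, and a second limma fit over all 32759 probe sets past it called 4 higher and 3 lower, where the background was 4.05% higher and 6.54% lower. The 7 were both ANXA4 sets, the dimmer ANXA9 set, and the sets named above for ANXA3, ANXA5, ANXA11 and ANXA13. The ANXA1 set and the brighter ANXA9 set, called among genes, missed the threshold here (limma, adjusted p = 0.0523 and 0.0687) at the same differences. Groups did not overlap for 13 of the 17, 6 higher and 7 lower, where 35.5% of all probe sets past the filter were apart, 15.5% upward and 20.0% downward. The 3 probe sets removed by the filter, for ANXA1, ANXA2 and ANXA6, had means of 3.53, 3.22 and 3.01, all under the low-end value, and their differences of 0.42, 0.30 and 0.24 ran against the brighter sets for ANXA2 and ANXA6. Without control replicate 3 the same fit called 12 annexin probe sets, 6 higher and 6 lower, and 21.7% of all probe sets past the filter, against 10.6% with all arrays. Without knockdown replicate 1, 2 or 3 it called 3, 4 and 4 annexin sets and 2.19%, 2.37% and 2.21% of all.

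**Figure D2:**
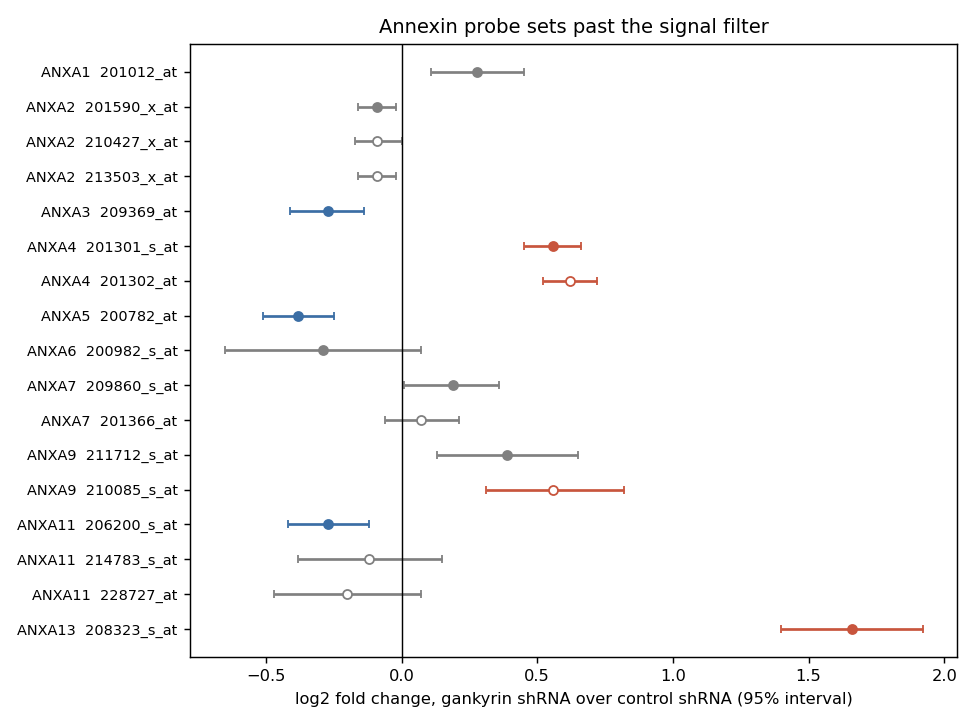
Log2 fold change (x axis, gankyrin shRNA over control shRNA) with 95% interval for the 17 annexin probe sets past the filter, from the fit over probe sets; filled points are each gene's brightest probe set, red was called higher, blue lower and grey not called. Both ANXA4 sets lie at 0.56 and 0.62, the 3 ANXA2 sets at -0.09, and ANXA13 at 1.66.

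Of the annexins outside the group, ANXA10 could be read on a probe set of its own. ANXA10, an annexin of gastric epithelium, was at 11.41, 11.47 and 11.31 in control and 10.72, 10.86 and 10.75 in knockdown cells. It fell by 0.62 on the log2 scale (SE 0.06; limma, adjusted p = 7.91e-05), a larger fall than any in the group, and no knockdown array reached a control value.

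Genes of the S100 family, which include the partners of several annexins, changed in both directions. Of 19 family members listed 12 passed the filter, of which 2 rose, 4 fell and 6 were not called, with a median log2 fold change of -0.01. For this list and those that follow, the share called over all genes tested was 22.5%, 8.13% higher and 14.3% lower. No list was tested as a set. S100PBP, which encodes an S100P-binding protein outside the family, was on the same list and is left out of these counts; it was at -0.03 and not called. S100A10, the partner of ANXA2, rose on a bright and very even probe set, from 12.48, 12.51 and 12.53 to 12.89, 12.88 and 12.90 (0.38 ± 0.03; limma, adjusted p = 3.61e-05). ANXA2 itself, at -0.09, was not called. S100A4, which also binds ANXA2 and is linked to cell motility, rose by 0.64 ± 0.10 (limma, adjusted p = 0.0019). S100A11, a partner of ANXA1, fell by 0.40 (SE 0.08; limma, adjusted p = 0.00606), from 11.04, 11.15 and 11.34 to 10.78, 10.89 and 10.67, while ANXA1 rose. S100A6, which binds ANXA11 among others, went from 12.40 ± 0.05 to 12.15 ± 0.04 (SD, n = 3 per group; limma, adjusted p = 0.00189), a fall that missed the threshold with its probe sets averaged (0.0527). S100A2, a p53-regulated family member, fell most, by 0.69 (SE 0.09; limma, adjusted p = 0.000743). S100P fell by 0.18 on a signal above 12.5, a call that was lost with no intensity trend (limma, adjusted p = 0.0884). S100A5, which had the smallest p of those not called, gave a signal under the low-end value and a change of 0.21 ± 0.11.

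Other binding partners and receptors were also mixed: of 10 past the filter 2 rose, 2 fell and 6 were not called (22.5% called over all genes). PLA2G4A, the cytosolic phospholipase A2 that annexins inhibit, rose by 0.63 ± 0.08 (limma, adjusted p = 0.000597), from 7.24, 7.11 and 7.11 to 7.83, 7.69 and 7.83. NEDD4, a ubiquitin ligase reported to bind ANXA13 in polarised epithelial cells, rose by 0.39 ± 0.09 (limma, adjusted p = 0.0135), and missed the threshold without knockdown replicate 2 (0.0654). AHNAK, a giant scaffold held at the membrane by S100A10 and ANXA2, fell by 0.64 (SE 0.10; limma, adjusted p = 0.00158), but with its probe sets averaged the change was -0.10 and not called (0.537). PRKCA, a protein kinase C recruited by ANXA6, fell by 0.43 (SE 0.10; limma, adjusted p = 0.0144), and missed the threshold without knockdown replicate 2 or 3 (0.0707 and 0.0608) and with its probe sets averaged, at -0.11 (0.28). PDCD6, the calcium sensor bound by ANXA7 and ANXA11, was at 0.15 ± 0.05 and just missed the threshold (limma, adjusted p = 0.0522), which it passed with the stricter filter on dim probe sets (0.0434). The receptors FPR1 and FPR2 were at or near the low end, at 4.64 and 4.16 in control arrays, and neither was called. FPR1 passed with no intensity trend (limma, adjusted p = 0.0443) and with the probe sets of each gene averaged (0.0498). Its change was 0.32 in both, as with the main processing.

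Genes of plasminogen activation, which the ANXA2 complex promotes at cell surfaces, gave 1 rise, 1 fall and 3 genes not called of 5 past the filter (22.5% called over all genes). PLAU, the urokinase gene, was low in control arrays (4.89, 4.81 and 4.69) and lower after knockdown (4.35, 4.06 and 4.04), a change of -0.65 ± 0.11 (limma, adjusted p = 0.00347) that ended below the low-end value. PLGRKT, a membrane plasminogen receptor, rose by 0.48 ± 0.12 (limma, adjusted p = 0.0158) and missed the threshold without control replicate 2 (0.0520) or knockdown replicate 1 or 3 (0.0756 and 0.0682). The urokinase receptor PLAUR was at -0.22 ± 0.10 and was not called, but passed at -0.33 without control replicate 1 (limma, adjusted p = 0.0164).

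Among 14 genes of membrane repair and of the ESCRT-III machinery, which pinches off damaged membrane, 1 rose, 2 fell and 11 were not called (22.5% called over all genes). The paralogues CHMP4B and CHMP4C, subunits of the ESCRT-III filament, went opposite ways. CHMP4B fell from 10.43, 10.62 and 10.68 to 10.08, 10.17 and 10.16 (-0.44 ± 0.07; limma, adjusted p = 0.00166), and was at -0.25 and not called with its probe sets averaged (0.126). CHMP4C rose from 9.73, 9.80 and 9.66 to 10.08, 10.05 and 10.02 (0.32 ± 0.05; limma, adjusted p = 0.00293). CAPN2, the large subunit of m-calpain, was at -0.18 ± 0.05 (limma, adjusted p = 0.0286). The CAPN2 call was lost when control replicate 2, knockdown replicate 1 or knockdown replicate 2 was left out (limma, adjusted p = 0.0980, 0.120 and 0.0926), with no intensity trend (0.105), and with its probe sets averaged, where the change was -0.01. The acid sphingomyelinase SMPD1, at -0.31 ± 0.11, was not called, but passed at -0.41 without control replicate 1 (limma, adjusted p = 0.0235). Without control replicate 3, 5 genes of this list were called, while the number called over all 14199 genes rose from 3189 to 4161.

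Of 7 scramblases and flippases, which set the side of the membrane on which phosphatidylserine lies, 2 rose and 5 were not called (22.5% called over all genes). The scramblase PLSCR1 rose by 0.24 ± 0.07 and the flippase ATP8A1 by 0.41 ± 0.13 (limma, adjusted p = 0.0300 and 0.0420). Both calls were fragile: without knockdown replicate 1, 2 or 3 the adjusted p was 0.111, 0.112 and 0.0623 for PLSCR1 and 0.160, 0.0838 and 0.0813 for ATP8A1 (limma). PLSCR1 also missed the threshold without control replicate 1 (0.0557) and ATP8A1 without control replicate 2 (0.133). PLSCR1 was further lost with arrays centred on their medians (0.0553) and with no intensity trend (0.0786). ATP8A1 was further lost with no filter (0.0533) and with the probe sets of each gene averaged (0.0509). The change of ATP8A1 stayed at 0.41 in both. The signal of ATP8A1 was near the low-end value of 4.48. It read 4.74, 4.34 and 4.48 on control arrays and 5.10, 4.85 and 4.84 on knockdown arrays. The stricter filter removed it. ATP11A, at -0.34 ± 0.12, was not called, but passed with the replicate number as a block (limma, adjusted p = 0.0285). Copines, C2-domain proteins that likewise bind phospholipids with calcium, gave 1 rise and 6 genes not called of 7 (22.5% called over all genes). CPNE3 rose by 0.31 ± 0.08 (limma, adjusted p = 0.0188), and without any 1 of control replicates 1 and 2 or the 3 knockdown arrays it missed the threshold, at 0.0508 to 0.0728. CPNE7 was at -0.32 ± 0.11 and was not called, but passed without control replicate 2 (limma, adjusted p = 0.0473) and with the stricter filter (0.0486).

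**Figure D3:**
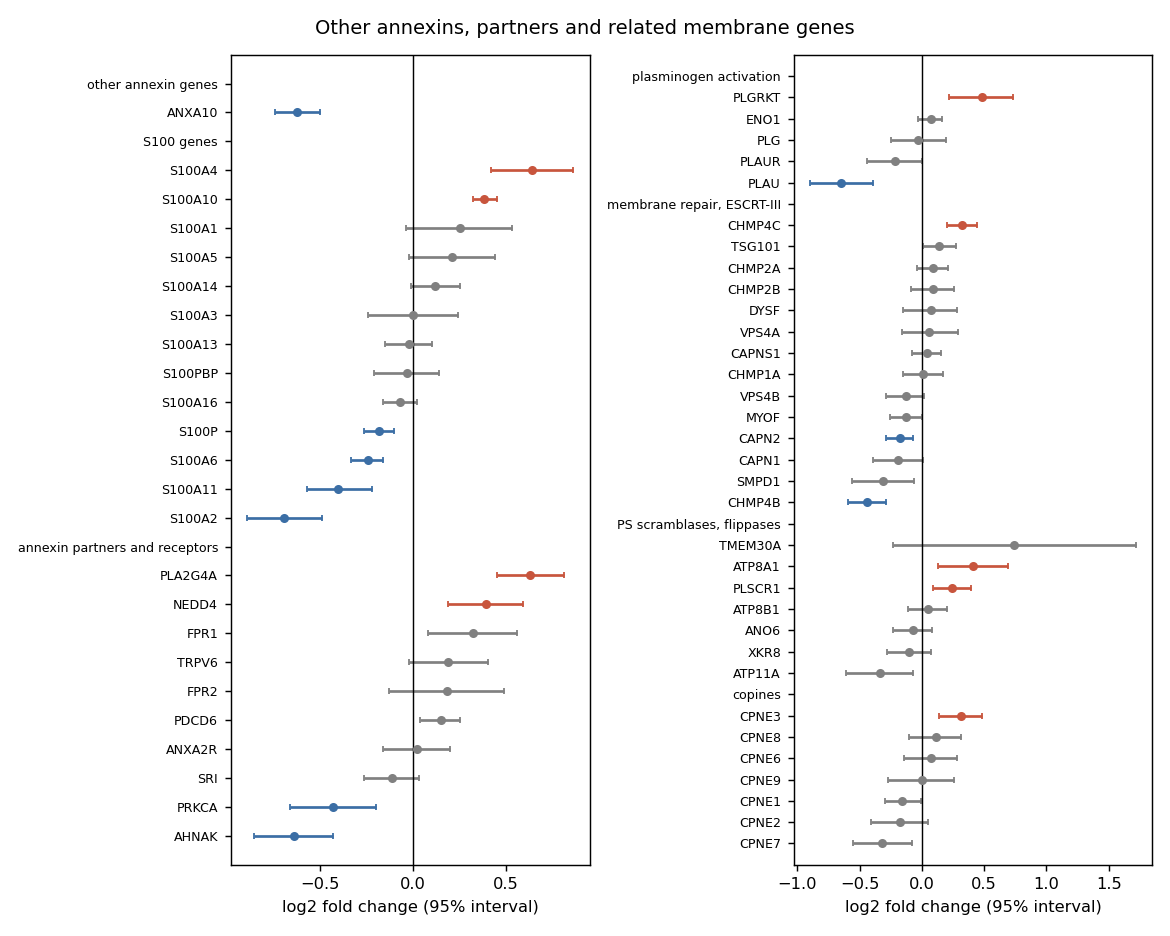
Log2 fold change (x axes, gankyrin shRNA over control shRNA) with 95% interval for genes past the filter in 7 lists (PS, phosphatidylserine); red rose, blue fell and grey was not called in limma over 14199 genes. S100A10 at 0.38 and S100A11 at -0.40, and CHMP4C at 0.32 and CHMP4B at -0.44, lie on opposite sides of 0.

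Among the 5 genes whose pattern over the 6 arrays was most like that of ANXA13 were NEB (nebulin), MATN2 (a matrix protein), AADAC (arylacetamide deacetylase) and RETREG1 (which marks endoplasmic reticulum for autophagy). Likeness was the root mean square difference between log2 signals centred on each gene's mean, which was 0.146 for NEB, 0.184 for MATN2, 0.193 for AADAC and 0.217 for RETREG1. With 2 groups of 3 arrays this measure mainly picks genes with a rise of similar size, and these 4 rose by 1.42 to 1.77 on the log2 scale. As a description, AADAC went from 8.06, 8.19 and 8.19 to 9.60, 9.61 and 9.50.

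Across the processing alternatives, 14 for ANXA6, which a stricter filter removed, and 15 for each other annexin, no annexin changed direction. ANXA3, ANXA4, ANXA5 and ANXA13 stayed past the threshold under all 15 alternatives. ANXA3, ANXA5 and ANXA13 each have a single probe set. For them only rescaling or leaving out an array could move the fold change, and the other alternatives could move only the adjusted p. ANXA1, ANXA9 and ANXA11 lost it under 3, 4 and 4 of them, and ANXA2, ANXA6 and ANXA7 gained it under 2, 1 and 2.

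**Figure D4:**
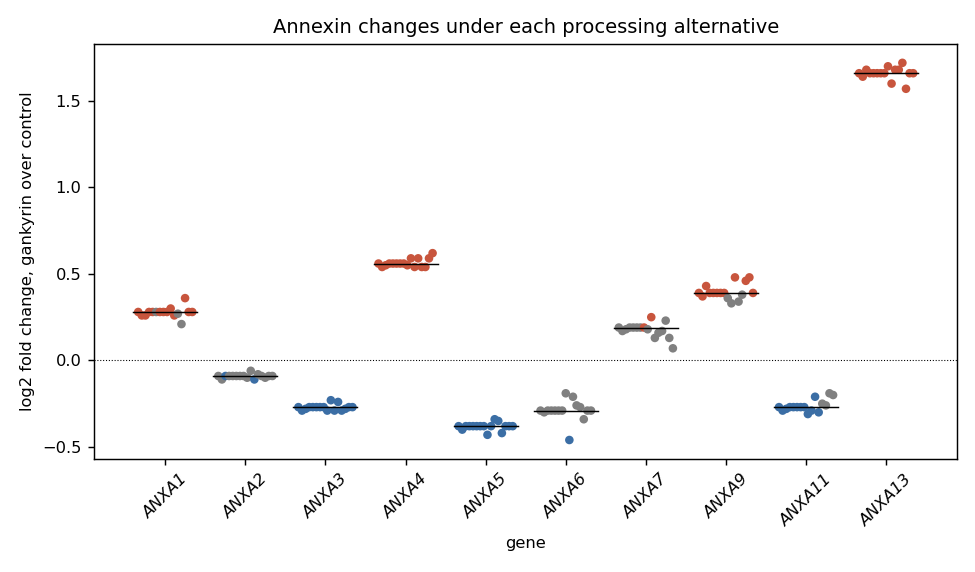
Log2 fold change of each annexin gene (y axis, gankyrin shRNA over control shRNA) under the main processing (first point of each gene, and black bar) and each alternative; red points were past the threshold upward, blue downward and grey not. ANXA13 stays between 1.57 and 1.72, and ANXA2 between -0.11 and -0.06.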

How the data were processed

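The authors deposited log2 probe set signals for 54675 probe sets on 6 arrays, made from 6 ug of total RNA each; that scale follows from their range of 1.29 to 13.68. Per the submitters' processing notes MAS5 was used, in a role and version they do not state; how probes were summarised is not given in the sources used here. Titles of the samples name gankyrin as the target, whereas a sentence of the series design names NFIL3. Leaving aside 62 controls, the annotation gave a single gene for 41091 probe sets, more than 1 for 1801 and no name here for 11721; symbols were updated to RefSeq (GRCh38.p14) for 19735 genes, and 42 kept the older one. Controls and the dimmest 40% of the rest by mean signal (limit 3.60) were removed, and each gene was read on its brightest probe set. The comparison used limma 3.58.1 (R 4.3.3; intensity trend, two-sided, Benjamini-Hochberg over all features, threshold 0.05). Precision is limited by having 3 arrays per group. The code was tested on simulated data. The members and lists were chosen with earlier results of these data known. Genes were named by this rule: PSMD10, all members, up to 3 called genes of smallest p and 1 uncalled gene from each list, and the 5 genes nearest ANXA13, of which 1 is not reported here; S100A4, S100A11, S100P, PRKCA, FPR1 and FPR2 were added after their values were seen. Alternatives covered scaling, filter, variance prior, replicate block, choice of probe set and each array left out.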

Additional observations from a re-analysis of the deposited data

How the results depend on the processing

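Leaving out 1 array at a time moved the number of called genes between 1732 and 4161 (3189 with all arrays), of called annexin genes between 4 and 8 (7), of called annexin probe sets between 3 and 12 (7), and of called genes over the 7 lists between 13 and 23 (19). The low ends came from leaving out a knockdown array and the high ends from leaving out control replicate 3, except that 8 annexin genes were also called without control replicate 2; the cause was not tested. ANXA13 lay between 1.57 and 1.72. The direction of 2 named genes turned, and neither was called where it turned: PDCD6 was at -0.09 with its probe sets averaged, and SMPD1 at 0.26 with its _s_at probe set avoided. The replicate numbers were not taken to pair the arrays, since deviations from the group means correlated at 0.020, 0.108 and -0.006 for numbers 1 to 3, and not every array correlated best with its own number. With the replicate block 3049 genes, 8 annexin genes (ANXA7 being added), 7 annexin probe sets and 20 list genes were called, and ANXA13 was at 1.66. No scaling moved the median log2 fold change of all genes by over 0.1. Signal near the low end limits the reading of ANXA6 and of ANXA13 in control cells. Among the named list genes it also limits the reading of ATP8A1, PLAU, S100A5, FPR1 and FPR2.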

Other observations

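Several probe sets that belong to no single annexin gene were left out of the annexin counts. A probe set annotated to both SNU13 and ANXA2 averaged 10.93 ± 0.04 over the control arrays and 10.74 ± 0.05 over the knockdown arrays (SD, n = 3 per group), and the probe set of the processed pseudogene ANXA2P2, which ends in _x_at, was at 11.35 ± 0.06 and 11.22 ± 0.03. In the fit over probe sets, the set shared by SNU13 and ANXA2 was called lower, at -0.19 (limma, adjusted p = 0.0357). The ANXA2P2 set, at -0.13, was not called (limma, adjusted p = 0.103). The pseudogenes ANXA2P1 and ANXA2P3 were far dimmer, at 4.97 ± 0.15 and 5.16 ± 0.10 in control arrays, with overlapping groups. The 2 probe sets shared by ANXA8 and ANXA8L1 had means over all arrays of 4.61 and 4.27, and their groups overlapped. ANXA2R, described as a receptor for ANXA2, was at 7.65 ± 0.08 and 7.67 ± 0.10. TMEM30A, the shared subunit of the flippases, read 8.46, 8.59 and 6.47 on control and 8.56, 8.59 and 8.60 on knockdown arrays (replicates 1 to 3); it was singled out after its values were seen, for the low value in control replicate 3.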
